A study of Homo sapiens with 6 samples.

Results

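The microRNA genes of this series were the probe sets whose platform annotation names exactly 1 gene with a symbol that starts with MIR and a digit, or with MIRLET7, host gene symbols ending in HG left out. They came to 173 of the 18404 genes tested, each read by 1 probe set. Another 32 probe sets name a microRNA gene among several genes and were not used here, MIR34C and MIR205 among them. H226 is an established human squamous carcinoma line, and the cells used here carry an inducible short hairpin RNA against p63 (shp63). In the control cells the hairpin was off and growth was untreated. In the Nutlin-3 cells the hairpin was also off and the cells received 10 µM Nutlin-3, an MDM2 inhibitor that stabilises p53, for 12 h. In the shp63 ON cells the hairpin was switched on with 1 µg/mL doxycycline for 48 h. Each group has 2 arrays, and the labels do not say whether these came from separate cultures, so the p-values measure the spread between arrays, which may be technical. Only the shp63 ON cells received doxycycline, so the hairpin, the drug and the 48 h cannot be told apart, and the hairpin's target gene was not analysed here.

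MicroRNAs are short RNAs that silence messenger RNAs. A long primary transcript, often the intron of a host gene, is cut by DROSHA in the nucleus into a hairpin, exported by XPO5 with RAN, and cut again by DICER1 into mature arms, of which 1 is held by an Argonaute protein and pairs with targets through its seed, the bases near the 5′ end. MIR34A is a textbook direct target of p53. Total RNA was hybridised and the probes can read the primary transcript, the hairpin or host RNA, so no value here is a level of a mature microRNA.

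The mature arms of the microRNA genes that the results turn on are given first, 5′ to 3′, with the seed (bases 2 to 8) in capitals. They are RefSeq sequences on GRCh38.p14, which the reference table held for 164 of the 173 genes, and hairpins for 155.
hsa-miR-34a-5p: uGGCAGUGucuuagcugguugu
hsa-miR-34b-5p: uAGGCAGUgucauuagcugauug
hsa-miR-221-3p: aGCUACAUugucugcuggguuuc
hsa-miR-222-3p: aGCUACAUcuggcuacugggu
hsa-miR-330-5p: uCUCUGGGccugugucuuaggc
hsa-miR-326: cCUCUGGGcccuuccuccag
hsa-miR-107: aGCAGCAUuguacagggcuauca
hsa-miR-29a-3p: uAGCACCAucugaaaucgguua
hsa-miR-25-3p: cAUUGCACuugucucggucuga
hsa-miR-106b-5p: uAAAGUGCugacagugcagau
hsa-miR-15a-5p: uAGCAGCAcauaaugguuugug
hsa-miR-16-5p: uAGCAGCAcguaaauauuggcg
hsa-miR-99b-5p: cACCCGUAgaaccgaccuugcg
hsa-miR-100-5p: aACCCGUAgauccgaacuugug
hsa-let-7e-5p: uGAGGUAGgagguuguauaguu
hsa-let-7a-5p: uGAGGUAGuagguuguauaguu
hsa-let-7f-5p: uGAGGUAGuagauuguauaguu
hsa-miR-125a-5p: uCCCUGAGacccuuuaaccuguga
hsa-miR-181b-5p: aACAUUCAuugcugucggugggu
hsa-miR-181c-5p: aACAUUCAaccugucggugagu
hsa-miR-21-5p: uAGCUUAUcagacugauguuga
hsa-miR-210-3p: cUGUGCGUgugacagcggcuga
hsa-miR-339-5p: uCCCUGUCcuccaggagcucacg
Across the genes with a mature sequence there were 226 distinct seeds, of which 47 belonged to at least 2 genes. In the set above, miR-221-3p and miR-222-3p share GCUACAU, miR-330-5p and miR-326 share CUCUGGG, miR-15a-5p and miR-16-5p share AGCAGCA, the let-7 arms share GAGGUAG, miR-99b-5p and miR-100-5p share ACCCGUA, and miR-181b-5p and miR-181c-5p share ACAUUCA. The seed of miR-34b-5p, AGGCAGU, is that of miR-34a-5p, GGCAGUG, shifted by 1 base.

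All values are deposited log2 intensities. The microRNA genes were dim: their mean over the 6 arrays ran from 3.40 to 10.13 with a median of 5.01, against a median of 7.30 over all genes, and 16 of the 173 reached that gene median. An intensity compares 1 probe set between arrays and does not rank RNA amounts between genes. The arrays had medians of 6.57 to 6.70 over all probe sets, and arrays of 1 group correlated at 0.993 to 0.995 over the 173 genes. Arrays of different groups correlated at 0.961 to 0.992 over the same genes. CDKN1A, a p53 target that blocks the cell cycle, read 10.21 and 10.30 in the control arrays, 11.85 and 11.84 with Nutlin-3 and 10.38 and 10.39 with shp63 ON, and MDM2, the p53 inhibitor, read 11.44 and 11.37 in the control arrays, 12.47 and 12.93 with Nutlin-3 and 10.92 and 11.04 with shp63 ON. Both p53 targets stood above control on both Nutlin-3 arrays. Of the 5 squamous epithelium markers 3 were measured, at means of 9.51 to 12.18, and of the 5 mesothelial markers 4 were measured, at 4.46 to 9.90. MicroRNA genes known from other tissues had these mean intensities: MIR122 of liver 4.25, 4 measured muscle genes 3.75 to 5.48, 5 nerve genes 3.95 to 5.89, MIR126 of endothelium 4.39, and 5 blood genes 3.62 to 6.90.

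With Nutlin-3, MIR34A and the neighbouring pair MIR221 and MIR222 rose most among the microRNA genes, by 1.98- to 2.31-fold. Falls were smaller, the largest that of MIR25. In all, 7 microRNA genes rose (4.05%) and 16 fell (9.25%), where limma with Benjamini-Hochberg adjustment called 9.64% of all genes higher and 8.89% lower. Over all intensities together, the share of rises was below that background and the share of falls was near it. Both are given by intensity below. The median log2 change was -0.0085 over the 173 genes and -0.0025 over all genes. Of the called changes, 4 rises and 1 fall reached 1.5-fold, where 2.48% of all genes rose and 1.78% fell that far. The split moved with the scaling, to 13 rises and 10 falls with arrays centred on their median and to 8 and 11 with quantile normalization. Over all genes the calls moved too, from 1774 higher and 1636 lower to 2609 and 1062 with centring and to 1705 and 1448 with quantile normalization. Without control replicate 1 the counts were 4 and 4, and without control replicate 2 there were 9 falls. In bulk samples, fewer cells with a transcript and less of it per cell cannot be told apart.

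MIR34A, whose mature arm targets cyclins and CDKs among others, lies within MIR34AHG at chr1:9151668-9151777 on the minus strand of GRCh38.p14. Its RefSeq hairpin, with both mature arms in capitals, is shown because MIR34A is the textbook p53 target of the set.
MIR34A hairpin: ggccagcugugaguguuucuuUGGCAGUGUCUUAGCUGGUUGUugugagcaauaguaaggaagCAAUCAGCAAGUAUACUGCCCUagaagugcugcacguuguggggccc
MIR34A read 5.14 and 5.10 in the control arrays, 6.08 and 6.12 with Nutlin-3 and 5.03 and 4.98 with shp63 ON. Both Nutlin-3 arrays stood clear of the other 4, which lay close together. The rise over control was 1.98-fold, a log2 change of 0.98 (SE 0.06, adjusted p = 5.73e-05), and it was called under each alternative fit, with adjusted p-values of 1.46e-05 to 0.0148. With shp63 ON the change was -0.12 (SE 0.06, adjusted p = 0.171), which cyclic loess moved to -0.22 and a call (adjusted p = 0.0302), and shp63 ON lay below Nutlin-3 by a log2 difference of -1.10 (SE 0.06, adjusted p = 2.06e-05). MIR34B, at chr11:111512938-111513021 on chromosome 11 within MIR34BHG, read 5.03 and 4.97 in the control arrays, 5.31 and 5.05 with Nutlin-3 and 4.87 and 5.01 with shp63 ON. Only Nutlin-3 replicate 1 stood apart, and neither 0.18 (SE 0.10, adjusted p = 0.246) with Nutlin-3 nor -0.06 (SE 0.10, adjusted p = 0.642) with shp63 ON passed the test.

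MIR221 and MIR222 lie 858 bases apart, start to start, on the minus strand of the X chromosome (chrX:45746157-45746266 and chrX:45747015-45747124) within MIR222HG, and their 3p arms, which share a seed, are known to silence the CDK inhibitor CDKN1B. MIR221 read 8.16 and 8.37 in the control arrays, 9.47 and 9.48 with Nutlin-3 and 8.17 and 8.31 with shp63 ON. MIR222 read 6.85 and 7.20 in the control arrays, 8.01 and 8.25 with Nutlin-3 and 6.62 and 7.06 with shp63 ON. In both, the Nutlin-3 arrays were the 2 highest and the control and shp63 ON arrays overlapped. The rises were 2.31-fold for MIR221, a log2 change of 1.21 (SE 0.09, adjusted p = 0.000108), and 2.14-fold for MIR222, 1.10 (SE 0.17, adjusted p = 0.00441). No call was made with shp63 ON, at -0.03 (adjusted p = 0.816) and -0.19 (adjusted p = 0.42). Leaving out any single array kept both Nutlin-3 calls.

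The other rises with Nutlin-3 were smaller. MIR330, in EML2, read 7.40 and 7.46 in the control arrays, 8.05 and 8.12 with Nutlin-3 and 7.49 and 7.61 with shp63 ON, a rise of 0.65 (SE 0.07, adjusted p = 0.000778) that every alternative kept. MIR107, one of the p53-linked list, lies within PANK1, a coenzyme A synthesis gene and p53 target, and read 6.83 and 6.88 in the control arrays, 7.23 and 7.32 with Nutlin-3 and 6.90 and 6.76 with shp63 ON. Its rise was 0.42 (SE 0.07, adjusted p = 0.00833), with an adjusted p of 0.0699 without control replicate 1. MIR29A, whose family is known to silence collagen genes, read 4.49 and 4.49 in the control arrays, 4.86 and 5.19 with Nutlin-3 and 4.09 and 3.98 with shp63 ON, so that the 3 groups stood in 3 separate ranges. It rose by 0.54 (adjusted p = 0.0128) with Nutlin-3 and fell by a log2 change of -0.45 (adjusted p = 0.0146) with shp63 ON. The first call was lost without either control array (adjusted p = 0.0708 to 0.0785) and the second without either control array or shp63 ON replicate 2 (adjusted p = 0.0678 to 0.0775). MIR100 was near the low end of the scale, read 4.07 and 4.04 in the control arrays, 4.27 and 4.59 with Nutlin-3 and 4.11 and 4.17 with shp63 ON, and its rise of 0.38 (adjusted p = 0.0431) was lost in 8 of 13 alternatives, among them leaving out either control array, Nutlin-3 replicate 2 or either shp63 ON array (adjusted p = 0.0681 to 0.165).

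**Figure D1:**
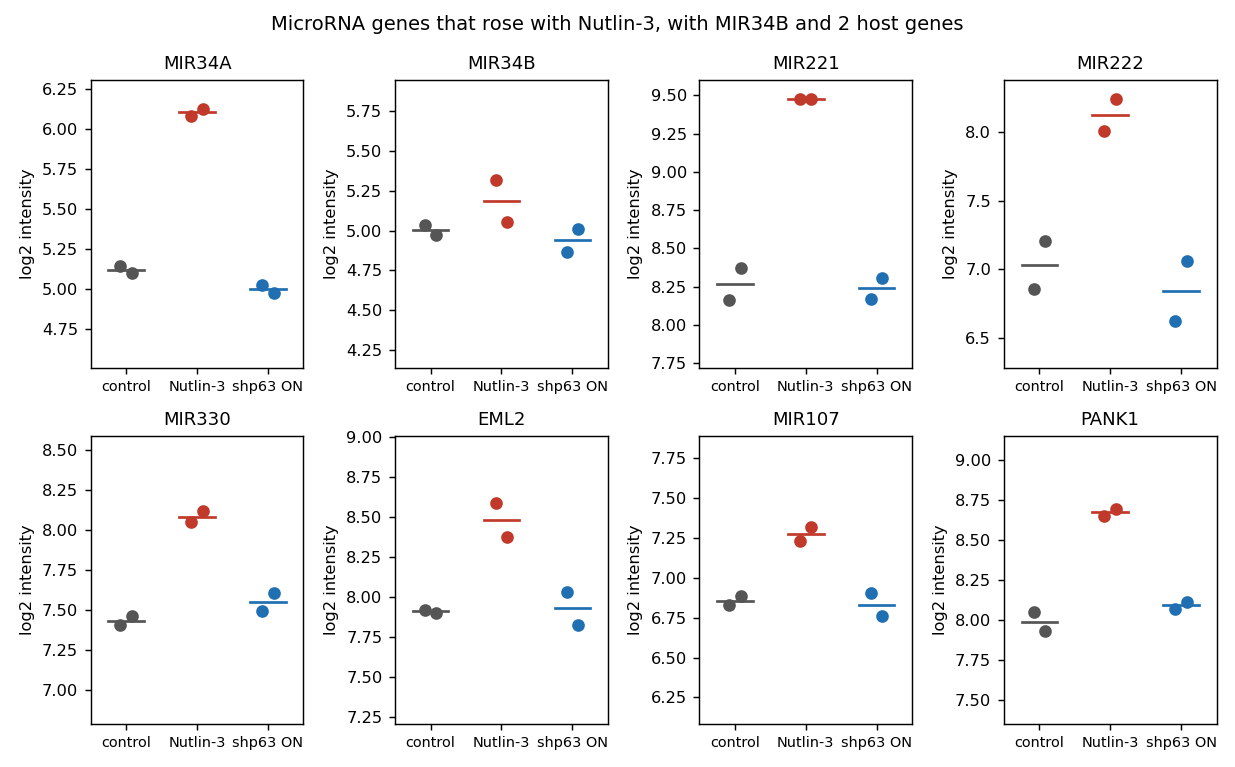
Log2 intensity on each array (points; 2 per group) with the group mean (line) for MIR34A, MIR34B, MIR221, MIR222, MIR330 with its host EML2, and MIR107 with its host PANK1, in control, Nutlin-3 and shp63 ON cells; each panel has its own axis range. Both Nutlin-3 arrays are the highest 2 of the 6 in every panel, and for MIR34B by a small margin that did not pass the test.

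The falls with Nutlin-3 held a pair from the MCM7 intron, a trio from SPACA6 and MIR15A. MIR25 and MIR106B, which lie 433 bases apart within MCM7 (chr7:100093560-100093643 and chr7:100093993-100094074), belong to the MIR17 family of clusters, known to silence CDKN1A and pro-apoptotic genes. MIR25 read 7.80 and 7.79 in the control arrays, 7.29 and 6.87 with Nutlin-3 and 7.66 and 7.68 with shp63 ON, and the Nutlin-3 arrays were the lowest 2 but differed from each other by more than the arrays of either other group did. MIR106B read 6.36 and 6.29 in the control arrays, 5.94 and 5.84 with Nutlin-3 and 6.41 and 6.30 with shp63 ON, with the Nutlin-3 arrays again lowest. The log2 changes were -0.72 (SE 0.12, adjusted p = 0.00701) and -0.44 (SE 0.07, adjusted p = 0.00604). MIR93, the other gene of that cluster, read 6.05 and 5.92 in the control arrays, 5.67 and 6.03 with Nutlin-3 and 5.96 and 5.94 with shp63 ON, where the groups overlapped and no call was made. MCM7 itself, a subunit of the replicative helicase, read 9.80 and 9.86 in the control arrays, 7.999 and 8.07 with Nutlin-3 and 8.24 and 8.25 with shp63 ON. Its log2 changes were -1.80 (adjusted p = 5.34e-06) with Nutlin-3 and -1.59 (adjusted p = 7.52e-06) with shp63 ON, while MIR25 and MIR106B with shp63 ON had -0.13 (adjusted p = 0.455) and 0.03 (adjusted p = 0.776). Between shp63 ON and Nutlin-3 MIR25 differed by 0.59 (adjusted p = 0.00545), MIR106B by 0.47 (adjusted p = 0.0014) and MCM7 by 0.21 (adjusted p = 0.0268). Without control replicate 1 the Nutlin-3 calls of MIR25 and MIR106B were lost (adjusted p = 0.0533 and 0.0563).

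MIR99B, MIRLET7E and MIR125A lie on chromosome 19 with starts within 642 bases, inside SPACA6, and all 3 fell with Nutlin-3. MIR125A read 6.39 and 6.40 in the control arrays, 5.998 and 5.89 with Nutlin-3 and 6.56 and 6.56 with shp63 ON, with the Nutlin-3 arrays below both control arrays, and fell by a log2 change of -0.45 (SE 0.07, adjusted p = 0.00339). MIRLET7E read 5.58 and 5.73 in the control arrays, 5.42 and 5.22 with Nutlin-3 and 5.63 and 5.64 with shp63 ON and had a log2 change of -0.34 (adjusted p = 0.0337). MIR99B read 7.49 and 7.52 in the control arrays, 7.26 and 7.19 with Nutlin-3 and 7.80 and 7.92 with shp63 ON and had a log2 change of -0.28 (adjusted p = 0.0324), while with shp63 ON it rose by 0.35 (adjusted p = 0.00787). SPACA6 was not called, at 0.19 (adjusted p = 0.453) with Nutlin-3. The call of MIR125A held without each array. That of MIRLET7E was lost without either control array, Nutlin-3 replicate 2 or either shp63 ON array (adjusted p = 0.0568 to 0.176). That of MIR99B with Nutlin-3 was lost without either control array or either Nutlin-3 array (adjusted p = 0.0603 to 0.149). The rise of MIR99B with shp63 ON was lost without control replicate 1 (adjusted p = 0.0505).

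MIR15A, a silencer of BCL2 and cyclins, lies 146 bases from MIR16-1 within DLEU2, a long noncoding RNA gene on chromosome 13 (chr13:50049119-50049201). It read 6.30 and 6.46 in the control arrays, 5.94 and 5.97 with Nutlin-3 and 5.83 and 5.92 with shp63 ON. Both treatments lay below both control arrays, at -0.43 (SE 0.08, adjusted p = 0.00861) with Nutlin-3 and -0.51 (SE 0.08, adjusted p = 0.00251) with shp63 ON, and between the treatments the difference was -0.08 (adjusted p = 0.412). DLEU2 read 6.70 and 6.85 in the control arrays, 6.05 and 5.85 with Nutlin-3 and 5.83 and 6.11 with shp63 ON, log2 changes of -0.83 (adjusted p = 0.0027) and -0.81 (adjusted p = 0.00188). MIR16-1 read 3.92 and 4.06 in the control arrays, 3.999 and 3.98 with Nutlin-3 and 3.97 and 3.95 with shp63 ON, near the low end of the scale, with no call. The MIR15A call with Nutlin-3 was lost without control replicate 2 (adjusted p = 0.0621), and that with shp63 ON was kept by every alternative. These 2 comparisons share the control arrays.

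**Figure D2:**
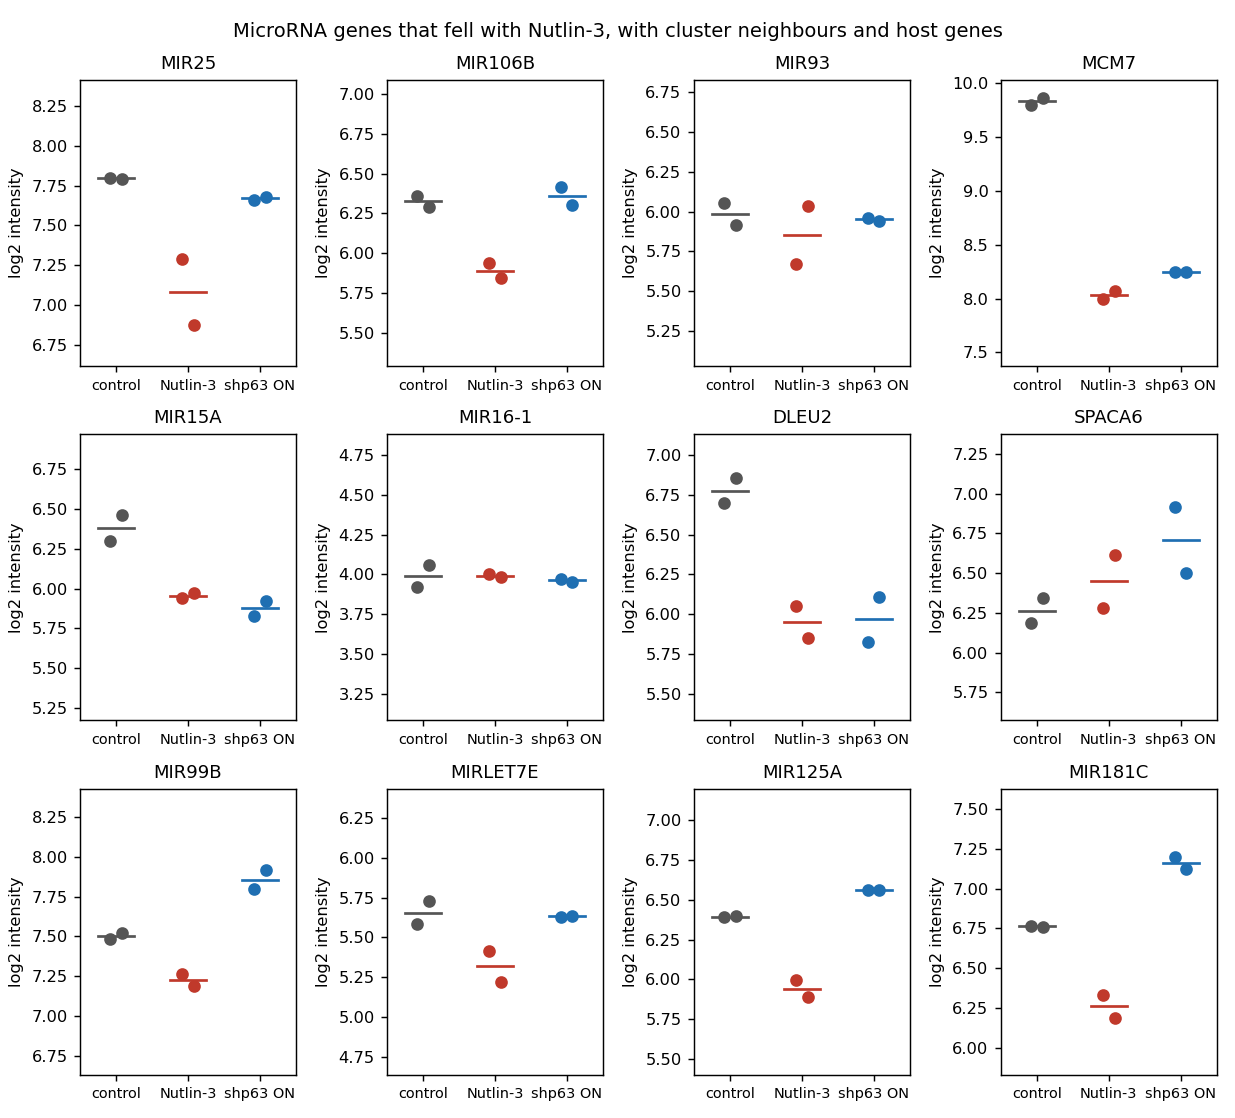
Log2 intensity on each array (points; 2 per group) with the group mean (line) for microRNA genes that fell with Nutlin-3, their cluster neighbours MIR93 and MIR16-1, and the hosts MCM7, DLEU2 and SPACA6; each panel has its own axis range. MCM7 is near 8 in both treated groups, while MIR25 and MIR106B are low with Nutlin-3 only and MIR15A is low in both.

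The remaining falls with Nutlin-3 are given side by side with the values for shp63 ON, since both comparisons share the control arrays. MIR181C read 6.77 and 6.76 in the control arrays, 6.33 and 6.19 with Nutlin-3 and 7.20 and 7.12 with shp63 ON. MIR150, known from lymphocytes, read 6.92 and 6.94 in the control arrays, 6.54 and 6.32 with Nutlin-3 and 7.31 and 7.37 with shp63 ON. MIR339 read 8.66 and 8.61 in the control arrays, 8.26 and 8.09 with Nutlin-3 and 9.20 and 9.15 with shp63 ON. In each of these 3 the Nutlin-3 arrays were the lowest and the shp63 ON arrays the highest. The log2 changes with Nutlin-3 and with shp63 ON were -0.50 (adjusted p = 0.00336) and 0.40 (adjusted p = 0.00525) for MIR181C. For MIR150 they were -0.50 (adjusted p = 0.00654) and 0.41 (adjusted p = 0.00843). For MIR339 they were -0.46 (adjusted p = 0.00617) and 0.54 (adjusted p = 0.00189). MIR194-2, of the p53-linked list, had -0.38 (adjusted p = 0.0419) and 0.44 (adjusted p = 0.0145), and MIR193A, of the epithelial list, had -0.34 (adjusted p = 0.0149) and 0.45 (adjusted p = 0.00275). The other falls with Nutlin-3, MIR188, MIR503, MIR211, MIR139 and MIR187, were between -0.35 and -0.31. MIR188 and MIR139 rose with shp63 ON, by 0.36 (adjusted p = 0.00617) and 0.33 (adjusted p = 0.0154). MIR187 rose there by 0.38 (adjusted p = 0.0067), MIR211 had 0.22 (adjusted p = 0.0647), and MIR503 is given below. The shp63 ON call of MIR139 was lost without either control array or shp63 ON replicate 1. Of all 23 Nutlin-3 calls, 16 were lost without at least 1 array. Those that no single array ended were MIR34A, MIR221, MIR222, MIR330, MIR125A, MIR150 and MIR181C. MIR339 was lost without control replicate 1 (adjusted p = 0.0559), MIR193A without either control array or Nutlin-3 replicate 2 (adjusted p = 0.053 to 0.108), and MIR194-2 without either control array, Nutlin-3 replicate 1 or either shp63 ON array (adjusted p = 0.0683 to 0.179). With shp63 ON the call of MIR194-2 was lost without any control or shp63 ON array (adjusted p = 0.0564 to 0.0776).

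With shp63 ON the microRNA genes that changed mostly rose, each by less than 1.5-fold, where 1.71% of all genes rose and 4.66% fell by 1.5-fold or more. In all, 32 rose (18.5%) and 4 fell (2.31%), against 19.7% of all genes called higher and 16.5% called lower. Over all intensities together, the share of rises was near the background and that of falls was below it. Both shares are given by intensity below. The median log2 change was 0.08 over the microRNA genes and 0.04 over all genes. Scaling moved the split to 24 rises and 7 falls with arrays centred on their median and to 21 and 6 with cyclic loess. Over all genes the calls moved from 3634 higher and 3036 lower to 2418 and 3854 with centring and to 2738 and 2880 with cyclic loess. The counts were 17 and 1 without control replicate 1, 17 and 1 without control replicate 2, and 21 and 2 without shp63 ON replicate 1. Of the cell type markers, 2 of 3 squamous genes fell and 2 of 4 mesothelial genes rose with shp63 ON, with median changes of -0.37 and 0.21, and with Nutlin-3 1 squamous gene rose and no mesothelial gene passed. Their part in the results was not tested.

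Since most microRNA genes are dim, their calls are also given by intensity. Among probe sets with a mean of 6 to 7, 9 of 31 microRNA genes and 1098 of 3167 genes rose with shp63 ON, and the median changes were 0.20 and 0.17. At 5 to 6 the rises were 8 of 33 and 604 of 2959, and at 7 to 8 they were 7 of 15 and 769 of 3120. Below 5, 2 of 86 microRNA genes and 97 of 2137 genes rose. At 8 and above, 6 of 8 microRNA genes rose, against 1066 of 7021 genes, with medians of 0.48 and -0.06. Falls with shp63 ON were 2 of 86 microRNA genes and 34 of 2137 genes below 5. They were 1 of 33 and 111 of 2959 at 5 to 6, and 1 of 31 and 320 of 3167 at 6 to 7. At 7 to 8 they were 0 of 15 and 657 of 3120, and at 8 and above 0 of 8 and 1914 of 7021. Falls with Nutlin-3 were also uneven. At 6 to 7, 9 of 31 microRNA genes fell, against 386 of 3167 genes, at 7 to 8 4 of 15 against 429 of 3120, and at 8 and above 2 of 8 against 667 of 7021. At 5 to 6 the falls were 1 of 33 and 135 of 2959, and below 5 they were 0 of 86 and 19 of 2137. Rises with Nutlin-3 were 2 of 86 microRNA genes and 30 of 2137 genes below 5. They were 1 of 33 and 93 of 2959 at 5 to 6, and 1 of 31 and 208 of 3167 at 6 to 7. At 7 to 8 they were 2 of 15 and 375 of 3120, and at 8 and above 1 of 8 and 1068 of 7021. The differences between microRNA genes and all genes within a band were not tested.

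**Figure D3:**
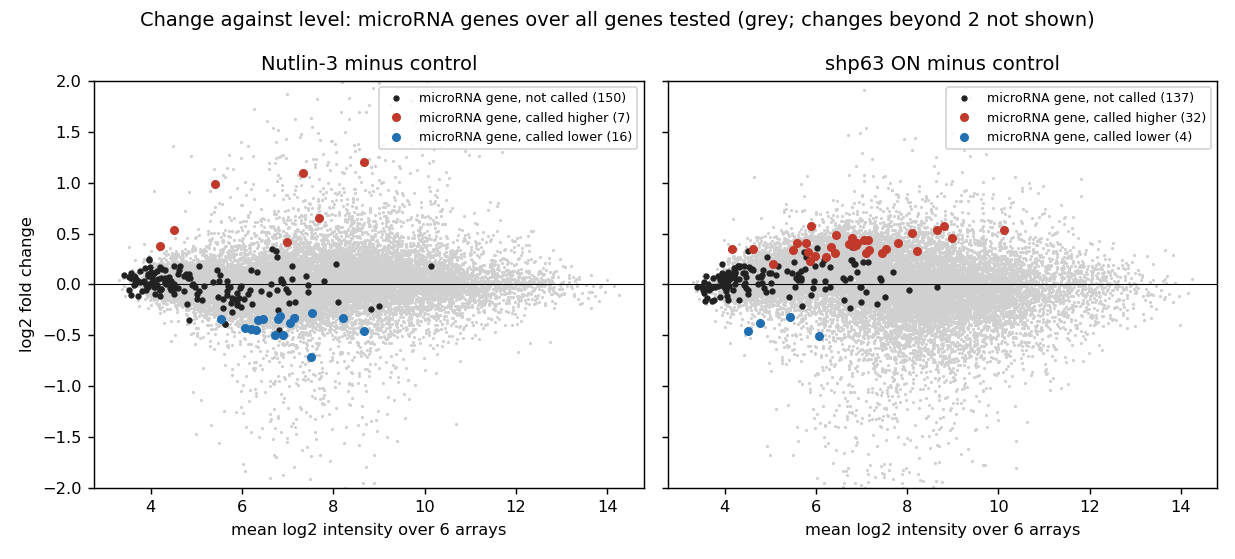
Log2 fold change (vertical axis) against mean log2 intensity over the 6 arrays (horizontal axis), with Nutlin-3 on the left and shp63 ON on the right; grey points are all genes tested and larger points the 173 microRNA genes by call. The microRNA genes crowd at low intensity, with 7 rises and 16 falls on the left and 32 rises and 4 falls on the right.

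MIR21, a well-known oncogenic microRNA and silencer of PDCD4, had the brightest probe set of the 173. It read 9.95 and 9.83 in the control arrays, 10.01 and 10.13 with Nutlin-3 and 10.28 and 10.57 with shp63 ON, with both shp63 ON arrays above the other 4, a rise of 0.53 (SE 0.11, adjusted p = 0.00753). Its host VMP1, an autophagy gene, had 0.10 (adjusted p = 0.239). MIR210, the textbook hypoxia-induced microRNA, read 7.98 and 7.99 in the control arrays, 7.85 and 7.77 with Nutlin-3 and 8.42 and 8.57 with shp63 ON, a rise of 0.51 (SE 0.07, adjusted p = 0.00207). MIR326 read 8.77 and 8.64 in the control arrays, 8.40 and 8.52 with Nutlin-3 and 9.22 and 9.34 with shp63 ON, a rise of 0.58 (SE 0.08, adjusted p = 0.00178). MIR181B1 read 8.89 and 8.94 in the control arrays, 8.72 and 8.67 with Nutlin-3 and 9.24 and 9.49 with shp63 ON, a rise of 0.45 (SE 0.09, adjusted p = 0.00721). In all of these the shp63 ON arrays were the highest 2. MIR503, which belongs to the extended MIR16 family and lies in MIR503HG, read 6.49 and 6.32 in the control arrays, 6.06 and 6.05 with Nutlin-3 and 6.94 and 6.84 with shp63 ON, a rise of 0.49 (adjusted p = 0.0032), and MIR503HG rose by 0.72 (adjusted p = 0.000349). MIR124-2, known from neurons, read 5.65 and 5.88 in the control arrays, 5.34 and 5.79 with Nutlin-3 and 6.32 and 6.36 with shp63 ON, a rise of 0.57 (adjusted p = 0.018). Leaving out 1 array ended the call of MIR21 (without control replicate 2, adjusted p = 0.0564) and that of MIR124-2 (without control replicate 1 or either shp63 ON array, adjusted p = 0.0699 to 0.106). The calls of MIR210, MIR326, MIR181B1, MIR503, MIR339 and MIR193A held without each array.

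Besides MIR15A and MIR29A, MIR186 and MIRLET7F1 fell with shp63 ON. MIR186, in ZRANB2, read 4.90 and 4.81 in the control arrays, 4.91 and 5.01 with Nutlin-3 and 4.32 and 4.65 with shp63 ON, a log2 change of -0.38 (adjusted p = 0.0324). MIRLET7F1 read 5.41 and 5.59 in the control arrays, 5.77 and 5.51 with Nutlin-3 and 5.23 and 5.12 with shp63 ON, a log2 change of -0.32 (adjusted p = 0.0494), while MIRLET7A1, in the same cluster on chromosome 9 and with the same seed, read 5.44 and 5.31 in the control arrays, 5.47 and 5.35 with Nutlin-3 and 5.59 and 5.83 with shp63 ON, a rise of 0.34 (adjusted p = 0.0312). The let-7 family is known to silence RAS and HMGA2. The call of MIR186 was lost without either control array or shp63 ON replicate 1 (adjusted p = 0.0896 to 0.146), that of MIRLET7F1 without any control or shp63 ON array (adjusted p = 0.0642 to 0.248), and that of MIRLET7A1 without either control array or shp63 ON replicate 2 (adjusted p = 0.0614 to 0.168). Of the 36 calls with shp63 ON, 22 were lost without at least 1 array.

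The shp63 ON and Nutlin-3 arrays were also compared directly. With shp63 ON 56 microRNA genes were higher (32.4%) and 15 lower (8.67%), against 27.5% and 24% of all genes, and 20 and 4 of these differed by 1.5-fold or more, as did 5.97% and 7.13% of all genes. The median difference was 0.11 over the microRNA genes and 0.03 over all genes. This split depended on the scaling: with arrays centred on their median it was 34 higher and 40 lower, the calls over all genes moved from 5057 higher and 4424 lower to 3314 and 6565, and the median over all genes moved from 0.03 to -0.10. The lower count was 8 without shp63 ON replicate 1. MIR339 differed by 1.00 (adjusted p = 6.7e-05), MIR150 by 0.91 (adjusted p = 0.000148) and MIR181C by 0.90 (adjusted p = 8.41e-05). In the other direction MIR222 differed by a log2 change of -1.28 (adjusted p = 0.000691), MIR221 by a log2 change of -1.24 (adjusted p = 4.8e-05), MIR34A as given above, and MIR29A by a log2 change of -0.99 (adjusted p = 0.000285).

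By family, the counts below stand beside backgrounds of 9.64% higher and 8.89% lower with Nutlin-3 and 19.7% and 16.5% with shp63 ON. Of 9 measured p53-linked genes besides MIR34, MIR107 rose and MIR194-2 and MIR15A fell with Nutlin-3, and MIR194-2 rose and MIR15A fell with shp63 ON, with median changes of 0.0005 and -0.02. Of 11 measured epithelial and p63-linked genes, MIR193A fell with Nutlin-3, and MIR193A, MIR21 and MIR200B rose with shp63 ON. MIR200B, a silencer of the ZEB factors, read 6.16 and 6.23 in the control arrays, 6.10 and 5.91 with Nutlin-3 and 6.50 and 6.42 with shp63 ON, a log2 change of 0.27 (adjusted p = 0.0352) that 9 of 13 alternatives lost, each single control or shp63 ON array left out among them (adjusted p = 0.0704 to 0.157), while MIR200A read 4.92 and 4.96 in the control arrays, 4.95 and 4.92 with Nutlin-3 and 4.76 and 4.95 with shp63 ON. Of 8 measured genes of the MIR17 clusters and the MCM7 and SMC4 introns, MIR25 and MIR106B fell with Nutlin-3 and none passed with shp63 ON. Among 10 let-7 genes 0 rose and 1 fell with Nutlin-3, and 1 rose and 1 fell with shp63 ON. Of 8 MIR29 and MIR30 genes MIR29A moved as given above, and MIR30C2 had a log2 change of 0.31 (adjusted p = 0.0271) with shp63 ON, a call lost without either control array or shp63 ON replicate 2 (adjusted p = 0.0979 to 0.131). None of the 15 measured genes of the chromosome 14 imprinted cluster or the 2 of the chromosome 19 placental cluster passed against control, where their means lay between 3.40 and 6.79.

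Genes that make the same mature arm did not always receive the same call. MIR181B1 and MIR181B2 both encode miR-181b-5p, and MIR181B2 read 7.08 and 6.89 in the control arrays, 6.95 and 6.93 with Nutlin-3 and 6.81 and 7.11 with shp63 ON, with no call where MIR181B1 rose with shp63 ON. MIR194-2 was called in both comparisons and MIR194-1, which read 4.08 and 3.95 in the control arrays, 4.14 and 4.06 with Nutlin-3 and 3.87 and 4.08 with shp63 ON, in neither. MIRLET7A2 read 7.98 and 8.01 in the control arrays, 7.99 and 8.40 with Nutlin-3 and 7.77 and 8.12 with shp63 ON, and was not called where MIRLET7A1 rose with shp63 ON. Whether such pairs differ was not tested. One shared seed, ACCCGUA, held a rise (MIR100) and a fall (MIR99B) with Nutlin-3. With shp63 ON AGCAGCA held a rise, of MIR195 at 0.20 (adjusted p = 0.037), and a fall, of MIR15A, as did GAGGUAG and UAUACAA through MIRLET7A1 and MIRLET7F1. The MIR195 call was lost without any single control or shp63 ON array (adjusted p = 0.0822 to 0.162).

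Host genes were read from RefSeq intervals on the same strand. The counts of calls below stand beside backgrounds of 9.64% higher and 8.89% lower with Nutlin-3. With shp63 ON the backgrounds are 19.7% and 16.5%. Of the 155 microRNA genes with a hairpin entry, 47 had no host, 107 had exactly 1 and 1 had several, and 59 could be paired with 1 of 50 hosts that was tested. Where the host rose with Nutlin-3 (7 pairs), MIR330 and MIR107 rose, MIR188 fell, and the other 4 were not called. One of those 4 was MIR7-2, which read 6.84 and 6.86 in the control arrays and 6.82 and 6.90 with Nutlin-3, where its host AEN, a p53-induced nuclease, rose by 0.95 (adjusted p = 0.000202). Where the host fell (11 pairs with 8 hosts), MIR25, MIR106B, MIR15A, MIR181C and MIR503 fell and the other 6 were not called, MIR15B and MIR16-2 in the condensin gene SMC4 among them, where SMC4 had -0.56 (adjusted p = 0.00229). With shp63 ON, 8 hosts rose and 4 of their microRNA genes rose, MIR503, MIR181C, MIR185 and MIR7-3. In 9 pairs with 6 hosts that fell, MIR15A fell, MIR188 rose and 7 were not called. Where the host was not called, 0 of 41 microRNA genes rose and 6 fell with Nutlin-3, the SPACA6 trio among them, and 9 of 42 rose and 1 fell with shp63 ON. Over the 59 pairs the Pearson correlation of the log2 changes was 0.49 with Nutlin-3 and 0.46 with shp63 ON, and Spearman's rho was 0.25 and 0.43, a description in which paired probe sets share arrays and may share transcript, and in which 1 host can count for several pairs. On a separate list of known host transcripts 22 were measured. Of these, 1 rose and 6 fell with Nutlin-3 and 2 rose and 4 fell with shp63 ON, beside the same backgrounds. MIR17HG, the host of the MIR17 cluster, read 6.90 and 6.93 in the control arrays, 6.66 and 6.66 with Nutlin-3 and 5.56 and 5.71 with shp63 ON, log2 changes of -0.26 (adjusted p = 0.0448) and -1.28 (adjusted p = 2.73e-05).

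**Figure D4:**
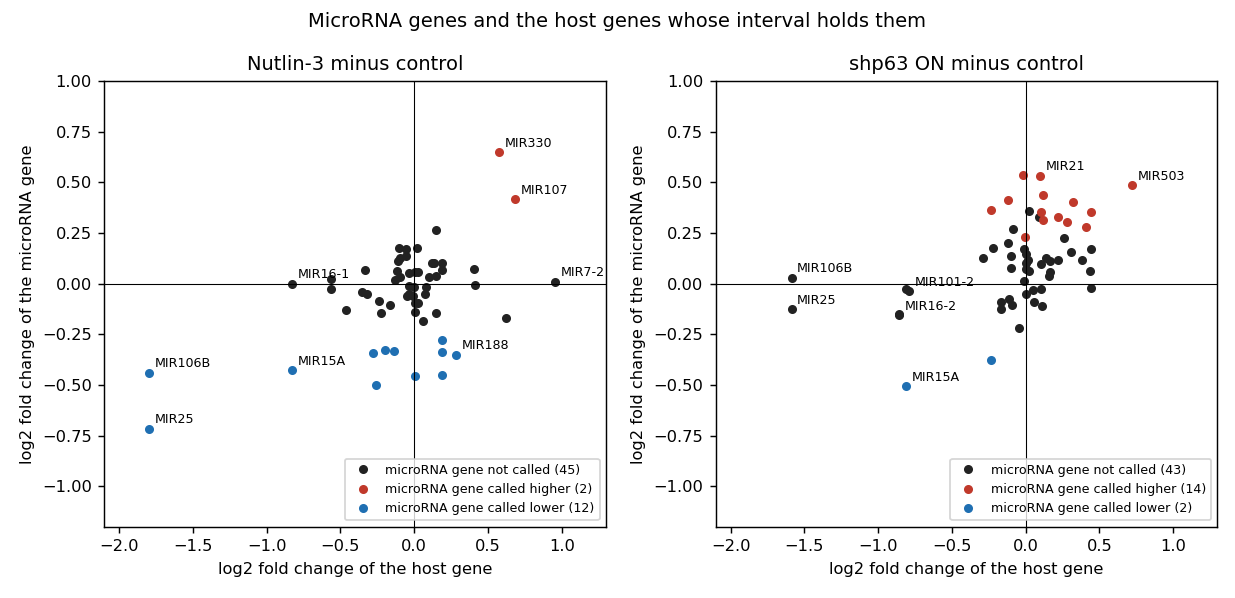
Log2 fold change of each microRNA gene (vertical axis) against that of its host gene (horizontal axis) for 59 pairs, with Nutlin-3 on the left and shp63 ON on the right, coloured by the call of the microRNA gene. MIR330 and MIR107 lie high with their hosts on the left, and MIR25 and MIR106B lie at a host change of -1.80 on the left and, near 0 on the vertical axis, at -1.59 on the right.

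Among those 155, 65 genes with a neighbour within 10 kb formed 26 clusters. With Nutlin-3 7 clusters held a call, and in 3 of them (MIR221 with MIR222, MIR25 with MIR106B, and the SPACA6 trio) every gene with a hairpin entry was called the same way. MIR93, which has no such entry and was placed in no cluster, was not called. With shp63 ON 9 clusters held a call, none with every gene called, and the cluster of MIRLET7A1 and MIRLET7F1 held both directions.

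The base composition of the hairpin moved with these changes. Over the 155 genes with a hairpin sequence, the share of G and C bases had a Pearson correlation of 0.63 with the mean intensity, -0.41 with the change with Nutlin-3 and 0.62 with the change with shp63 ON. These points share the same 6 arrays, and the comparisons share the control arrays. In the 52 genes of the highest tertile, with 54% to 73.6% G and C, 1 rose and 14 fell with Nutlin-3, and 22 rose and 0 fell with shp63 ON, with median changes of -0.16 and 0.24. In the 52 genes of the lowest tertile, with 28.8% to 44.8%, 1 rose and 1 fell with Nutlin-3, and 3 rose and 4 fell with shp63 ON, with medians of 0.06 and -0.02. Among all genes, 9.64% rose and 8.89% fell with Nutlin-3, and 19.7% and 16.5% with shp63 ON. The tertiles also differed in intensity, with a median of 6.32 in the highest and 4.11 in the lowest. With shp63 ON, 1098 of 3167 genes at 6 to 7 rose, and 97 of 2137 below 5. With Nutlin-3, 386 of 3167 genes at 6 to 7 fell, and 19 of 2137 below 5. The hairpin of MIR25 has 63.1% G and C and that of MIR210 72.7%. That of MIR29A has 32.8% and that of MIR15A 42.2%. MIR34A at 50.9%, MIR221 at 47.3% and MIR222 at 50.9% lay between. This split was chosen after the values were seen, and its part in the results was not tested.

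**Figure D5:**
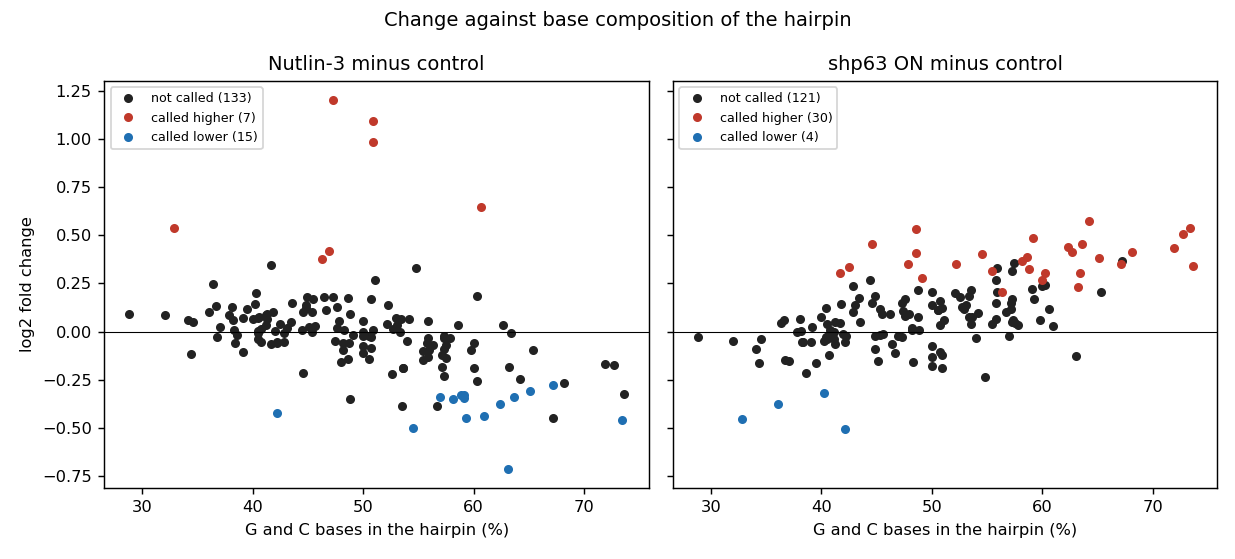
Log2 fold change (vertical axis) against the percentage of G and C bases in the RefSeq hairpin (horizontal axis) for 155 microRNA genes, with Nutlin-3 on the left and shp63 ON on the right, coloured by call. Most called falls on the left and most called rises on the right lie at high G and C, while MIR34A, MIR221 and MIR222 are the 3 highest points on the left.

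The genes that process microRNAs and carry out silencing were described beside them. Of 24 measured, 2 rose and 8 fell with shp63 ON, and 2 rose and 1 fell with Nutlin-3. Among all genes, 19.7% rose and 16.5% fell with shp63 ON, and 9.64% and 8.89% with Nutlin-3. The 24 genes had means of 3.99 to 11.58. At means of 8 and above, 1914 of 7021 genes fell with shp63 ON. Whether the 24 differ from other genes was not tested. XPO5, the hairpin exporter, read 10.43 and 10.40 in the control arrays, 10.34 and 10.28 with Nutlin-3 and 9.72 and 9.74 with shp63 ON, a log2 change of -0.68 (SE 0.06, adjusted p = 0.000274), and its partner RAN read 10.84 and 10.82 in the control arrays, 10.68 and 10.59 with Nutlin-3 and 10.17 and 10.13 with shp63 ON, a log2 change of -0.69 (SE 0.06, adjusted p = 0.000319). For both, the shp63 ON arrays lay below the other 4. With shp63 ON DICER1 had a log2 change of -0.35 (adjusted p = 0.0044) and AGO1 had -0.36 (adjusted p = 0.00414). KHSRP, a processing cofactor, had -0.43 (adjusted p = 0.00205) with shp63 ON. It was also the gene that fell with Nutlin-3, at -0.29 (adjusted p = 0.0184). Between shp63 ON and Nutlin-3 KHSRP was not called, at -0.14 (adjusted p = 0.0878). TUT4, a uridyltransferase that marks let-7 precursors, rose by 0.34 (adjusted p = 0.00913) with Nutlin-3 and had a log2 change of -0.33 (adjusted p = 0.00574) with shp63 ON, and TUT7, its paralog, rose by 0.40 (adjusted p = 0.013) with Nutlin-3. DROSHA and AGO2 also fell with shp63 ON, at -0.27 (adjusted p = 0.0164) and -0.26 (adjusted p = 0.0155), and LIN28A and TNRC6B rose, at 0.35 (adjusted p = 0.0142) and 0.28 (adjusted p = 0.0255).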

How the data were processed

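RNA of 6 arrays (Affymetrix HuGene 1.0 ST, 3 groups of 2) was analysed. The deposited values were log2 intensities per probe set, as their range of 2.94 to 14.88 shows. The authors used Partek, per the submitters' processing notes. For the background correction and normalization behind the log2 values the method is not given in the sources used here.

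Of 32321 probe sets, 19158 name 1 gene in the platform annotation, 1388 several and 11775 none. The brightest probe set stood for each of 18404 genes. limma 3.58.1 (R 4.3.3; lmFit and eBayes, 1 mean per group over the 6 arrays, 3 residual degrees of freedom) tested each contrast, with Benjamini-Hochberg adjustment over all 18404 genes and calls at an adjusted p under 0.05. The fit was also run on simulated data, with independent noise and far fewer changed genes than were called here. That run does not check the calls. A permutation test of 2 arrays against 2 cannot give a p below 0.333, so none was run. The number of arrays limits the precision, and without detection calls dim values cannot be separated from background.

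Hosts came from RefSeq intervals on GRCh38.p14 on the same strand, clusters from starts within 10 kb, and mature arms, seeds and G and C shares from RefSeq sequences, all matched by gene ID or symbol. Named genes were the MIR34 family, called members of the gene lists, the 8 largest called rises and falls against control, the 8 brightest members, hosts of these, MDM2, CDKN1A and up to 6 called biogenesis genes per comparison. MIR93, MIR16-1, MIR195, MIR188, MIR211, MIR187, MIR99B, MIR7-2, MIR7-3, MIR185, MIR15B, MIR16-2, SMC4 and AEN were named after their values were seen. So were MIR17HG, DROSHA, AGO2, TNRC6B, MIR126, MIR122, MIR200A and the unlisted members of identical-arm pairs. The members and the lists were chosen with earlier results of these data known. Same-numbered arrays of different groups deviated from their group means with correlations of -0.06, -0.02 and 0.11. These gave no sign of pairing but cannot exclude it, and the labels do not say whether the arrays were prepared together.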

Additional observations from a re-analysis of the deposited data

How the results depend on the processing

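No called change of a single microRNA gene against control turned its direction under any of the 14 alternatives. Of the 23 calls with Nutlin-3, 4 passed under every alternative (MIR34A, MIR221, MIR330 and MIR125A), as did 7 of the 36 with shp63 ON. MIR34A with shp63 ON, not called otherwise, was called lower with cyclic loess. The counts of rises and falls moved as follows. With arrays centred on their median there were 13 rises and 10 falls with Nutlin-3, 7 falls with shp63 ON, and 34 higher and 40 lower genes between shp63 ON and Nutlin-3. Cyclic loess left 21 rises with shp63 ON. The filter on dim genes kept 16 of the 173 microRNA genes in the test, so that counts dropped to 3 rises and 5 falls with Nutlin-3, 9 and 0 with shp63 ON, and 10 and 3 between the treatments. An analysis of variance with no moderation of the spread gave 3 and 1, 8 and 2, and 28 and 7. Leaving out 1 array at a time gave 4 to 9 rises and 4 to 14 falls with Nutlin-3, 17 to 36 rises and 1 to 4 falls with shp63 ON, and 40 to 53 higher and 8 to 14 lower genes between the treatments, where the lone remaining array of a group was assumed to vary like the others. With a replicate block the counts were 8 and 18, 32 and 3, and 56 and 15, and the deviations gave no sign that the numbers pair arrays. Where a count moved, the cause was not tested, apart from the smaller number of genes or arrays that the alternative itself leaves. The precision rests on 2 arrays per group, and the median SD between arrays of a group was 0.06 to 0.08 over the microRNA genes.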
